A study of Homo sapiens with 20 samples.

Results

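The integrated stress response factors are 10 genes: EIF2AK3, ATF4, CEBPB, CEBPG, ATF3, ATF5, DDIT3 (which encodes CHOP), TRIB3, PPP1R15A and NUPR1. They were picked by name, with earlier results of these data known. They are the rows of the deposited expression matrix whose Ensembl gene identifier carries such a symbol, out of 60483 listed genes. Each symbol matched 1 row, and all 10 were among the 15687 tested genes, those reaching 1 FPKM (fragments per kilobase of exon, scaled by library total) in 2 or more libraries. In the integrated stress response, kinases such as PERK (the product of EIF2AK3, which senses misfolded protein in the endoplasmic reticulum) phosphorylate the initiation factor eIF2, which lowers general protein synthesis while the mRNA of the transcription factor ATF4 is translated more. ATF4 then acts with partners of the bZIP class on genes of amino acid supply and redox balance, and with CHOP on genes linked to cell death. Plasma cells secrete large amounts of antibody, and proteasome inhibitors such as bortezomib engage the integrated stress response in myeloma cells.

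RNA was sequenced from 5 human multiple myeloma cell models, each with indirubin-3'-monoxime (I3MO), an indirubin of a class known for kinase inhibition and aryl hydrocarbon receptor binding, or with its vehicle DMSO. The groups were ANBL6BR (ANBL6 cells labelled bortezomib resistant) with 5 µM I3MO or DMSO, ANBL6 with 5 µM I3MO or DMSO, and ARP1, RPMI8226 and U266, each with 10 µM I3MO or DMSO. Each of the 10 groups had 2 libraries. Dose and model therefore cannot be told apart between the 2 ANBL6 lines and the other 3, and the sources used here give no duration of exposure. All are cultured tumour lines, the source is labelled bone marrow, and ANBL6BR is a single resistant derivative as far as the labels say. The labels do not say that replicates were separate cultures. The p-values therefore measure the spread between these libraries, which may be technical, except in the test across the models. That test takes the mean of each model, and its p-values measure how far the response differed between models. What was measured is RNA: phosphorylation of eIF2, translation and protein of these factors were not.

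Library totals recovered from the deposited values ran from 12.1 M to 20.3 M fragments. Of 8 plasma cell markers, 7 or 8 reached 1 FPKM in every group, none was at 0, and their summed FPKM ran from 186 to 619. That sum moved with treatment in U266, at 212 to 225 in I3MO libraries, against 476 to 479 in DMSO libraries. It was 396 to 404 in I3MO libraries, against 540.1 to 544 in DMSO libraries, of RPMI8226. In ARP1 it was 467 to 469 in I3MO libraries, against 534 to 619 in DMSO libraries. Its part in the responses of the factors was not tested. The summed FPKM of 4 markers each did not pass 1.43 for B cells, 0.979 for T cells, 0.622 for monocytes, 4.62 for stroma and 5.99 for erythroid cells. One library stood apart within its group, ANBL6BR DMSO, where the summed plasma cell markers themselves ran from 186 to 495 FPKM. The oxidative stress gene HMOX1 had 59.7 and 76.0 FPKM in ANBL6BR I3MO libraries, against 99.0 and 825 FPKM in DMSO replicates 1 and 2. SQSTM1, which encodes the p62 autophagy receptor, had 26.7 and 22.2 FPKM in ANBL6BR I3MO libraries, against 34.2 and 301 FPKM in DMSO replicates 1 and 2, so replicate 2 is the library apart. The ANBL6 I3MO libraries had 32668 and 28419 genes above 0, against 22138 and 22710 in ANBL6 DMSO libraries, and the part of this in the ANBL6 results was not tested. In bulk RNA, fewer cells of a kind and less RNA per cell cannot be told apart.

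Promoter sequence of the members is shown because several of them carry letters that bZIP factors are known to bind, TGATGNAA or TGACG. The CCAAT box was searched as well and is not counted as such a site. The DDIT3 stretch holds CCAAT matches only. RefSeq promoter windows (GRCh38.p14, 250 bases before to 50 after a start) were at hand for 9 members, 18 windows in all. They were searched on both strands for TGATGNAA (the C/EBP-ATF element), TGACG (the core of the cyclic AMP response element, CRE) and CCAAT (the CCAAT box). No motif's letters contain another's, though matches may overlap. The stretches below are the longest run of each upstream window that lies outside all GENCODE 29 exons. They are written 5′ to 3′ on the gene's strand, with matches in capitals. Upstream means before a listed RefSeq start. The CEBPG and DDIT3 stretches lie inside the GENCODE 29 spans of these genes, after their first annotated base.
CEBPG upstream stretch, chr19:33373896-33374112, plus strand: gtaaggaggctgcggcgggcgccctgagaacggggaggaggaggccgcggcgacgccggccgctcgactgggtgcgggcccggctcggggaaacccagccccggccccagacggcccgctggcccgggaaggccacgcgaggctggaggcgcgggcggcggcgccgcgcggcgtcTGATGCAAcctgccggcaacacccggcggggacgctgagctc
ATF3 upstream stretch, chr1:212565157-212565333, plus strand: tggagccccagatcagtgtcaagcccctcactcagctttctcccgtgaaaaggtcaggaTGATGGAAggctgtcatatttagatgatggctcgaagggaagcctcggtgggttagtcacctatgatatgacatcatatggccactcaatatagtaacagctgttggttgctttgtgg
PPP1R15A upstream stretch, chr19:48872171-48872391, plus strand: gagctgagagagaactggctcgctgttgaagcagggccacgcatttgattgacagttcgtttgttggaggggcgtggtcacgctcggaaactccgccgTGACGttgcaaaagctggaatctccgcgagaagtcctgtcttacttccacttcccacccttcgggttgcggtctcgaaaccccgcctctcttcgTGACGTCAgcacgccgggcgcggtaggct
DDIT3 upstream stretch, chr12:57520518-57520709, minus strand: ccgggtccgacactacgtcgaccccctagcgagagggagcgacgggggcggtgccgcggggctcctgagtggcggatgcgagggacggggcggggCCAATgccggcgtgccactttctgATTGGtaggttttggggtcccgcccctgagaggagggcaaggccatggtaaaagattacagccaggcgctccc

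TGATGNAA occurred in 2 of the 18 member windows, against 3.62% of 34943 windows of all genes. In CEBPG the match begins 42 bases before the second listed start, and in ATF3 191 bases before the first. TGACG occurred in 5 of the 18 member windows, those of PPP1R15A, ATF5, CEBPB and ATF4, a share near the 24.5% of all windows. In PPP1R15A the matches that begin 58 and 55 bases upstream overlap on opposite strands and together spell the palindrome TGACGTCA, a full CRE. CCAAT occurred in 7 of the 18 member windows, of EIF2AK3, DDIT3, CEBPG, CEBPB and ATF3, a share near the 34.6% of all windows. Some windows of a gene overlap, so these counts hold single sites more than once. The ATF4 windows share their TGACG matches, and the windows of DDIT3 and of CEBPB share CCAAT matches. In DDIT3, 2 CCAAT matches face each other 97 and 73 bases before the second listed start. No window of TRIB3 held any of the 3 motifs. A match describes letters in a window and does not show that a factor binds there.

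ATF4 and TRIB3 were called higher with I3MO in all 5 models, and each other factor in 1 to 3 of them. CEBPG and DDIT3 libraries with I3MO also lay above those with DMSO in all 5 models, without a call in each. Here and below, separation of groups of 2 libraries describes these libraries and is weak evidence by itself. The share of all tested genes that separate in this way is not given here. At a limma adjusted p under 0.05 over all 15687 genes (called, below), the factors called higher with I3MO were 5 of 10 in ANBL6BR, 3 in ANBL6, 6 in ARP1, 3 in RPMI8226 and 8 in U266. The share of all tested genes called higher was 10% in ANBL6BR, 4.1% in ANBL6, 23.1% in ARP1, 6.19% in RPMI8226 and 10.5% in U266. In ARP1 the balance of directions depended on scaling. There 3625 genes were higher and 2176 lower, but 2595 higher and 3472 lower with median-ratio scaling. One factor, ATF5 in ANBL6BR, was called lower, where 8.4% of all genes were called lower. No factor was called lower in the other models, where the share of all genes called lower was 3.87% in ANBL6, 13.9% in ARP1, 8.62% in RPMI8226 and 15.8% in U266. The median log2 change of the 10 factors was 0.38 in ANBL6BR, 0.27 in ANBL6, 0.71 in ARP1, 0.28 in RPMI8226 and 1.28 in U266, while that of all tested genes lay between -0.02 in U266 and 0.03 in ARP1. Log2 changes are I3MO minus DMSO on the log2(FPKM + 1) scale, with a standard error from a spread shared by all 10 groups. This scale understates the change of genes near or under 1 FPKM. Fitted on the 4 libraries of a model alone, no factor was called in ANBL6BR, ANBL6 or ARP1, where 64, 18 and 227 genes were, so those calls rest on the shared spread. Gene positions below are those of GENCODE 29 on GRCh38.

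**Figure D1:**
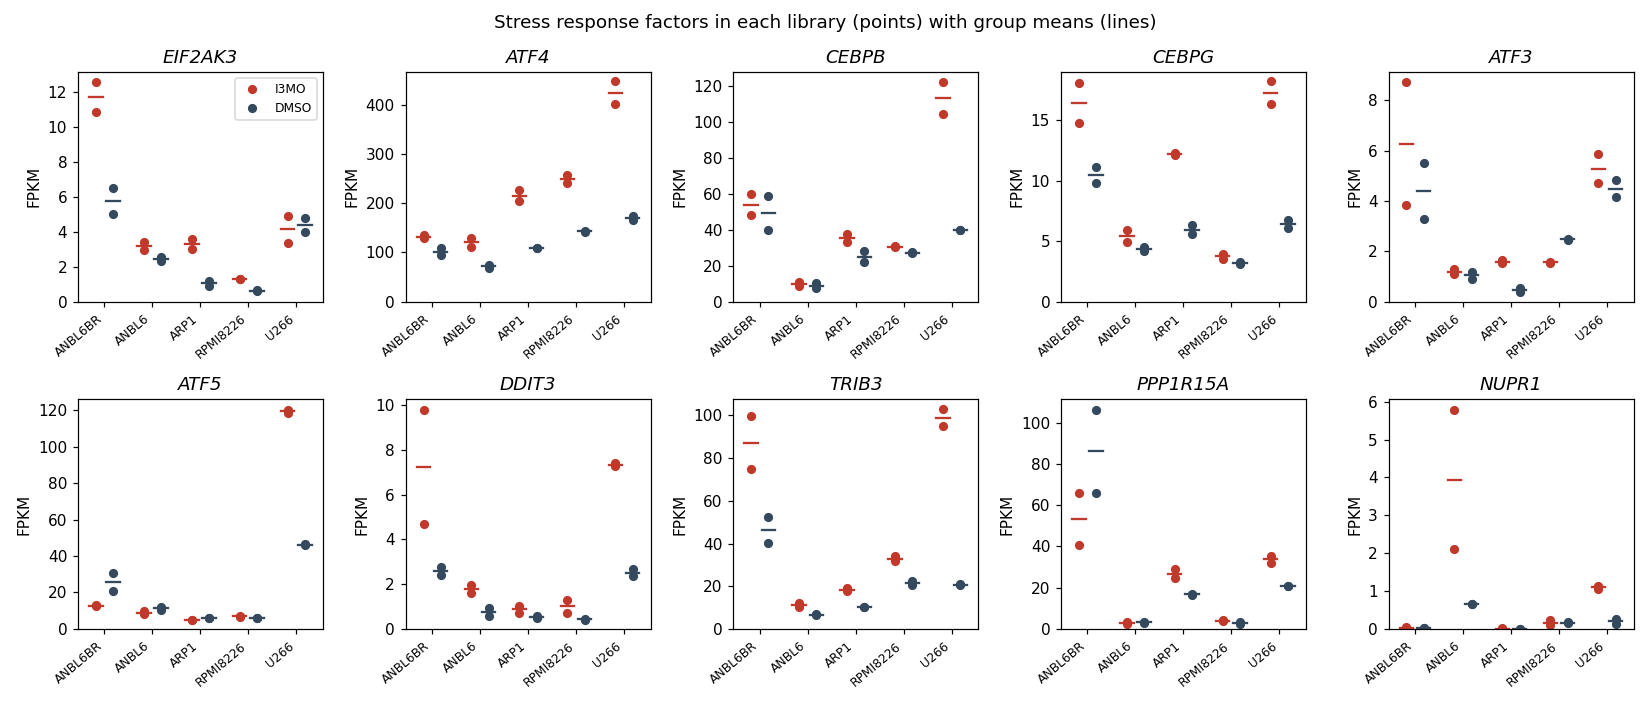
FPKM of the 10 stress response factors in each of the 20 libraries, by model, with I3MO libraries left of DMSO libraries and a line at each group mean. ATF4, TRIB3, CEBPG and DDIT3 libraries with I3MO lie above the DMSO libraries in all 5 models, while ATF5 and PPP1R15A lie below them in ANBL6BR.

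**Figure D2:**
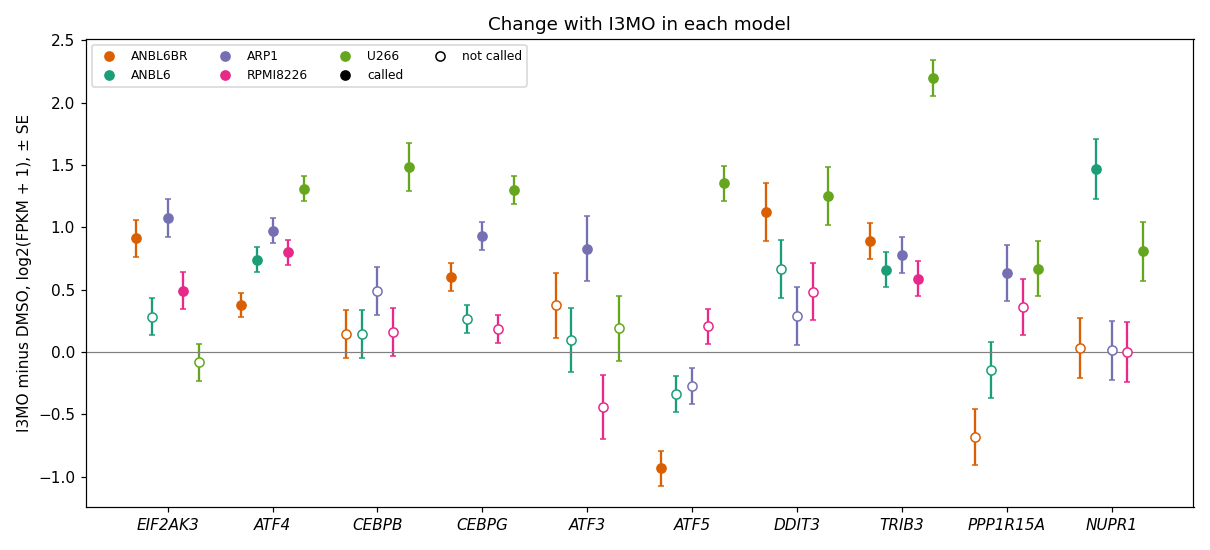
Change of each factor with I3MO (I3MO minus DMSO, log2(FPKM + 1), error bars 1 SE) in each of the 5 models, with filled points for changes called at an adjusted p under 0.05 and open points for the rest. TRIB3 in U266 has the highest value (2.20), and ATF5 in ANBL6BR the lowest (-0.93).

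EIF2AK3 (chr2:88556741-88627576), the gene of the PERK kinase at the head of the pathway, was higher with I3MO in 3 models. It had 10.8 and 12.5 FPKM in ANBL6BR I3MO libraries, against 6.51 and 5.02 FPKM in ANBL6BR DMSO libraries, a log2 change of 0.91 ± 0.15 (limma adjusted p = 0.00131). In ARP1 it had 3.61 and 3.01 FPKM in ARP1 I3MO libraries, against 0.899 and 1.19 FPKM in ARP1 DMSO libraries, and the change was 1.07 ± 0.15 (limma adjusted p = 0.000194), or 3.16 times by mean FPKM. In RPMI8226 it had 1.32 and 1.27 FPKM in RPMI8226 I3MO libraries, against 0.581 and 0.681 FPKM in RPMI8226 DMSO libraries, with a change of 0.49 ± 0.15 (limma adjusted p = 0.0447). The libraries of the 2 treatments did not overlap in any of these 3 models, but the RPMI8226 call was lost without 14 of the 20 libraries in turn, 10 of them from other models. In ANBL6 the libraries did not overlap either, at 3.39 and 2.97 FPKM in ANBL6 I3MO libraries, against 2.53 and 2.33 FPKM in ANBL6 DMSO libraries, but the change of 0.28 ± 0.15 (limma adjusted p = 0.290) was not called. In U266 the libraries overlapped, at 4.90 and 3.37 FPKM in U266 I3MO libraries, against 3.995 and 4.797 FPKM in U266 DMSO libraries, and the value was -0.08 ± 0.15 (limma adjusted p = 0.783). Of its exon bases, 15.1% are shared with other listed genes.

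ATF4 (chr22:39519695-39522685), the transcription factor that the pathway turns on, was the most abundant of the 10 on merged exon length in every group. It had 129.9 and 134 FPKM in ANBL6BR I3MO libraries, against 108 and 95.4 FPKM in ANBL6BR DMSO libraries. In ANBL6 it had 111 and 129.5 FPKM in ANBL6 I3MO libraries, against 74.9 and 68.0 FPKM in ANBL6 DMSO libraries. In ARP1 it had 204 and 226 FPKM in ARP1 I3MO libraries, against 109 and 108 FPKM in ARP1 DMSO libraries. Each of these pairs of groups was separate, with I3MO above DMSO. In RPMI8226 it had 258 and 240.5 FPKM in RPMI8226 I3MO libraries, against 143 and 142 FPKM in RPMI8226 DMSO libraries. In U266 it had 400.4 and 448 FPKM in U266 I3MO libraries, against 175 and 166 FPKM in U266 DMSO libraries. All 10 libraries with I3MO were thus above the DMSO libraries of their own model. The log2 change was 1.31 ± 0.10 (limma adjusted p = 1.42e-06) in U266, 0.97 ± 0.10 (limma adjusted p = 2.03e-05) in ARP1, 0.80 ± 0.10 (limma adjusted p = 0.000172) in RPMI8226, 0.74 ± 0.10 (limma adjusted p = 0.000929) in ANBL6 and 0.38 ± 0.10 (limma adjusted p = 0.0183) in ANBL6BR. By mean FPKM this was 2.49 times in U266 and 1.30 times in ANBL6BR. The ANBL6BR call did not hold without ANBL6BR DMSO replicate 2, at 0.29 (adjusted p = 0.109), nor without either ANBL6BR I3MO library, nor with median-ratio scaling, at 0.35 (adjusted p = 0.0746).

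CEBPB (chr20:50190734-50192689) and CEBPG (chr19:33373330-33382686) are C/EBP family factors that can pair with ATF4. CEBPB was higher with I3MO in U266, with 122 and 105 FPKM in U266 I3MO libraries, against 40.02 and 39.8 FPKM in U266 DMSO libraries and a log2 change of 1.48 ± 0.19 (limma adjusted p = 0.000114). In ARP1 it had 33.1 and 37.7 FPKM in ARP1 I3MO libraries, against 28.2 and 21.9 FPKM in ARP1 DMSO libraries, which did not overlap, yet the change of 0.49 ± 0.19 (limma adjusted p = 0.0652) was not called. In ANBL6BR the CEBPB libraries overlapped, at 48.2 and 59.8 FPKM in ANBL6BR I3MO libraries, against 40.1 and 58.8 FPKM in ANBL6BR DMSO libraries. Uncalled values in the other models were 0.14 in ANBL6BR, 0.14 in ANBL6 and 0.16 in RPMI8226. CEBPG was higher in 3 models. It had 16.3 and 18.2 FPKM in U266 I3MO libraries, against 6.73 and 6.08 FPKM in U266 DMSO libraries, a change of 1.30 ± 0.11 (limma adjusted p = 4.29e-06). In ARP1 it had 12.1 and 12.3 FPKM in ARP1 I3MO libraries, against 6.34 and 5.55 FPKM in ARP1 DMSO libraries, a change of 0.93 ± 0.11 (limma adjusted p = 7.22e-05). In ANBL6BR it had 14.7 and 18.1 FPKM in ANBL6BR I3MO libraries, against 9.78 and 11.2 FPKM in ANBL6BR DMSO libraries, a change of 0.60 ± 0.11 (limma adjusted p = 0.00304). The CEBPG libraries with I3MO also lay above those with DMSO in ANBL6 and RPMI8226, where the changes of 0.26 and 0.18 were not called. CEBPG is the member whose second promoter window holds the TGATGCAA shown above.

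ATF3 (chr1:212565334-212620777), a stress-induced factor that ATF4 can activate, was low and was called in ARP1 alone. It had 1.53 and 1.63 FPKM in ARP1 I3MO libraries, against 0.531 and 0.380 FPKM in ARP1 DMSO libraries, without overlap, and a log2 change of 0.83 ± 0.26 (limma adjusted p = 0.0237). These values rest on 312 and 368 recovered fragments in ARP1 I3MO libraries and 121 and 93 in ARP1 DMSO libraries. The call was lost without any 1 of the 4 ARP1 libraries, while the value kept to between 0.75 and 0.90. In RPMI8226 both I3MO libraries were below both DMSO libraries, at 1.53 and 1.59 FPKM in RPMI8226 I3MO libraries, against 2.47 and 2.48 FPKM in RPMI8226 DMSO libraries, and the change of -0.44 ± 0.26 (limma adjusted p = 0.328) was not called. In ANBL6BR the libraries were far apart within each group, at 3.82 and 8.72 FPKM in ANBL6BR I3MO libraries, against 3.28 and 5.52 FPKM in ANBL6BR DMSO libraries. The ANBL6BR change was 0.88 without I3MO replicate 1 but -0.13 without I3MO replicate 2. The uncalled changes were 0.37 in ANBL6BR, 0.10 in ANBL6 and 0.19 in U266, where the groups overlapped.

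ATF5 (chr19:49928702-49933935), a bZIP factor whose translation is controlled much as that of ATF4 is, moved in opposite directions in 2 models. In U266 it was higher with I3MO, with 120.3 and 118 FPKM in U266 I3MO libraries, against 45.9 and 46.4 FPKM in U266 DMSO libraries and a log2 change of 1.35 ± 0.14 (limma adjusted p = 2.01e-05). In ANBL6BR it was lower, with 12.3 and 13.3 FPKM in ANBL6BR I3MO libraries, against 20.9 and 30.7 FPKM in ANBL6BR DMSO libraries and a change of -0.93 ± 0.14 (limma adjusted p = 0.000801). The ANBL6BR groups did not overlap, and the value was -0.67 without the DMSO library with high HMOX1 and -1.20 without the other one. ATF5 libraries with I3MO also lay below those with DMSO in ANBL6, at -0.34, and in ARP1, at -0.27, and above them in RPMI8226, at 0.21, none of which was called. With median-ratio scaling the ARP1 value was -0.48 (adjusted p = 0.0248). Of the exon bases of ATF5, 21.2% are shared with IL4I1 or NUP62, and the labels do not say how the authors counted such reads.

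DDIT3 (chr12:57516588-57521737), whose product CHOP is the factor of this pathway most linked to cell death, was called higher in 2 models. In U266 it had 7.28 and 7.41 FPKM in U266 I3MO libraries, against 2.37 and 2.66 FPKM in U266 DMSO libraries, a log2 change of 1.25 ± 0.23 (limma adjusted p = 0.00152). In ANBL6BR it had 4.67 and 9.80 FPKM in ANBL6BR I3MO libraries, against 2.79 and 2.42 FPKM in ANBL6BR DMSO libraries, a change of 1.12 ± 0.23 (limma adjusted p = 0.00518). The libraries with I3MO lay above those with DMSO in both models. In ANBL6BR the value was 0.66 when the second I3MO library was left out and 1.59 when the first was. In ANBL6 DDIT3 had 1.61 and 1.97 FPKM in ANBL6 I3MO libraries, against 0.952 and 0.577 FPKM in ANBL6 DMSO libraries. In ARP1 it had 0.731 and 1.02 FPKM in ARP1 I3MO libraries, against 0.488 and 0.566 FPKM in ARP1 DMSO libraries. In RPMI8226 it had 0.730 and 1.30 FPKM in RPMI8226 I3MO libraries, against 0.435 and 0.412 FPKM in RPMI8226 DMSO libraries. The groups were separate in these 3 models too, with I3MO higher, but none was called, at 0.67 ± 0.23 (limma adjusted p = 0.1002), 0.29 ± 0.23 (limma adjusted p = 0.381) and 0.49 ± 0.23 (limma adjusted p = 0.209). The deposited FPKM of DDIT3 divide by 6459 bases, the exons of all its transcripts summed, where its merged exons hold 1307, so its FPKM are understated 4.94 times and the 1 added to FPKM weighs more. On merged lengths the ANBL6 value was 1.07 (adjusted p = 0.0431), and on recovered fragments with limma-voom it was 1.25 (adjusted p = 0.107). DDIT3 also shares 31.6% of its exon bases with MARS or MBD6.

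TRIB3 (chr20:362835-397559), a pseudokinase induced by ATF4 and CHOP that restrains ATF4 in turn, was called in all 5 models. In U266 it had 103 and 95.2 FPKM in U266 I3MO libraries, against 21.2 and 20.4 FPKM in U266 DMSO libraries, which is 4.76 times by mean FPKM, with a log2 change of 2.20 ± 0.14 (limma adjusted p = 4.25e-07). In ANBL6BR it had 75.0 and 99.7 FPKM in ANBL6BR I3MO libraries, against 40.4 and 52.7 FPKM in ANBL6BR DMSO libraries, a change of 0.89 ± 0.14 (limma adjusted p = 0.00108). In ARP1 it had 17.5 and 19.2 FPKM in ARP1 I3MO libraries, against 10.4 and 10.2 FPKM in ARP1 DMSO libraries, a change of 0.78 ± 0.14 (limma adjusted p = 0.00110). No I3MO library fell within the range of the DMSO libraries of its model. In ANBL6 it had 10.1 and 12.3 FPKM in ANBL6 I3MO libraries, against 6.89 and 6.51 FPKM in ANBL6 DMSO libraries, a change of 0.66 ± 0.14 (limma adjusted p = 0.0151). In RPMI8226 it had 34.0 and 31.7 FPKM in RPMI8226 I3MO libraries, against 20.5 and 22.6 FPKM in RPMI8226 DMSO libraries, a change of 0.59 ± 0.14 (limma adjusted p = 0.0147). These last 2 calls were each lost without any 1 of 3 libraries of that model: both DMSO libraries and I3MO replicate 2 in ANBL6, and DMSO replicate 1 and both I3MO libraries in RPMI8226.

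PPP1R15A (chr19:48872392-48876057) encodes GADD34, the phosphatase subunit that ends the response by removing phosphate from eIF2. It was called higher with I3MO in ARP1, with 24.4 and 28.9 FPKM in ARP1 I3MO libraries, against 16.6 and 17.03 FPKM in ARP1 DMSO libraries and a log2 change of 0.63 ± 0.22 (limma adjusted p = 0.0432). In U266 it had 35.4 and 31.9 FPKM in U266 I3MO libraries, against 20.7 and 20.9 FPKM in U266 DMSO libraries, a change of 0.67 ± 0.22 (limma adjusted p = 0.0437). The groups were separate in both models, yet each call was lost without any 1 of 14 of the 20 libraries in turn, most of them from other models, and the ARP1 value was 0.39 (adjusted p = 0.203) with median-ratio scaling. ANBL6BR went the other way, with 40.8 and 65.6 FPKM in ANBL6BR I3MO libraries, against 65.8 and 106 FPKM in ANBL6BR DMSO libraries and a change of -0.68 ± 0.22 (limma adjusted p = 0.0532), just outside the threshold. Without the DMSO library with high HMOX1 it was -0.34, and without the other DMSO library it was -1.02. It passed the threshold in 6 of the other fits, among them limma-voom at -0.69 (adjusted p = 0.0281). Uncalled values were -0.14 in ANBL6, with overlap, and 0.36 in RPMI8226, without.

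NUPR1 (chr16:28532708-28539174), a small stress-induced chromatin protein, was called higher in ANBL6 and in U266 and was low elsewhere. In ANBL6 it had 2.11 and 5.78 FPKM in ANBL6 I3MO libraries, against 0.667 and 0.656 FPKM in ANBL6 DMSO libraries, or 197 and 464 fragments in ANBL6 I3MO libraries and 64 and 63 in ANBL6 DMSO libraries. The log2 change was 1.47 ± 0.24 (limma adjusted p = 0.00351), and mean FPKM differed 5.96 times, with the 2 I3MO libraries themselves far apart. Without ANBL6 I3MO replicate 2 the log2 change was 0.90, a fit that leaves 1 library in that group and so no longer holds this spread. In U266 it had 1.14 and 1.06 FPKM in U266 I3MO libraries, against 0.263 and 0.137 FPKM in U266 DMSO libraries, a change of 0.81 ± 0.24 (limma adjusted p = 0.0245), and the call was lost without any 1 of the 4 U266 libraries. The other models held few fragments of NUPR1. ANBL6BR had 4 and 3 fragments in I3MO libraries and 1 and 1 in DMSO libraries. ARP1 had 0 and 2 in I3MO libraries and 0 and 0 in DMSO libraries, and 0 fragments allows up to 0.0269 FPKM in ARP1 DMSO replicate 1 by the count of 3 taken as its limit. RPMI8226 had 23 and 15 in I3MO libraries and 16 and 18 in DMSO libraries. No change was detectable in these 3 models at this depth. Such intervals and limits cover counting error only.

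Taking each model as 1 observation (the mean of its libraries, 5 models with I3MO against the same 5 with DMSO), no factor was called, and 0% of the 15687 genes were, with 2651 of them at an unadjusted p under 0.05 and 0 called by limma-voom. The mean log2 change was 0.84 ± 0.14 (limma adjusted p = 0.0999) for ATF4, 0.76 ± 0.16 (limma adjusted p = 0.115) for DDIT3 and 1.02 ± 0.24 (limma adjusted p = 0.134) for TRIB3. These standard errors and p-values measure the spread of the response between models, not between libraries. ATF4, DDIT3, TRIB3, CEBPB, CEBPG and NUPR1 were positive in 5 of 5 models. For NUPR1 this includes a value of 0.0018 in RPMI8226, where few fragments were held. The share of all genes positive in 5 of 5 models is not given here. ATF4 passed, at 0.84 (adjusted p = 0.0371), when 9157 genes with FPKM of at least 1 in 10 libraries were tested, of which 168 were called. With the 2 replicates of each model kept apart and a replicate block, 5 factors were called, ATF4, TRIB3, DDIT3, CEBPG and EIF2AK3, among 2219 genes. That fit counts the 2 libraries of a model as separate observations, matched by numbers that pair no libraries. Its calls are therefore not read as results over 5 models.

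The responses differed between the models for 8 of the 10 factors in a joint test of equal I3MO responses, which called 44.5% of all genes. The limma adjusted p was 7.04e-05 for ATF5, 0.000397 for TRIB3, 0.000862 for CEBPG and 0.00289 for ATF4, and it missed the threshold for ATF3 (0.0964) and DDIT3 (0.0977). Because an equal fold at different base levels gives different changes in log2(FPKM + 1), these tests read base levels too for genes near 1 FPKM. The pairs below share libraries with each other and with the comparisons within models.

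At the same dose of 10 µM, the U266 response exceeded that of RPMI8226 for 5 factors, where 13.6% of all genes were called in either direction. The difference in log2 change was 1.61 ± 0.20 (limma adjusted p = 0.000223) for TRIB3, 1.32 ± 0.27 (limma adjusted p = 0.00654) for CEBPB, 1.15 ± 0.20 (limma adjusted p = 0.00226) for ATF5, 1.12 ± 0.16 (limma adjusted p = 0.000548) for CEBPG and 0.51 ± 0.14 (limma adjusted p = 0.0288) for ATF4. The ATF4 call was lost without any 1 of 7 of the 8 libraries compared, and in 3 of the other fits. EIF2AK3 pointed the other way, at -0.58 ± 0.21 (limma adjusted p = 0.0997), and passed with 0.1 added to FPKM, at -1.04 (adjusted p = 0.0341). ARP1 minus U266 was called for 5 factors, against 30.6% of all genes. It was lower in ARP1 for ATF5, -1.62 ± 0.20 (limma adjusted p = 0.00015), TRIB3, -1.42 ± 0.20 (limma adjusted p = 0.000386), CEBPB, -0.99 ± 0.27 (limma adjusted p = 0.0167), and DDIT3, -0.96 ± 0.33 (limma adjusted p = 0.0426). EIF2AK3 responded more in ARP1, by 1.16 ± 0.21 (limma adjusted p = 0.00189). The DDIT3 difference was -0.83 (adjusted p = 0.316) on recovered fragments and -0.89 (adjusted p = 0.174) with 0.1 added to FPKM, and it was lost in 5 of the other fits. In this comparison the median of all genes was 0.11, and median-ratio scaling moved it by -0.11, to 0.00, with which ATF4 and CEBPG were lower in ARP1 too, at -0.64 (adjusted p = 0.0148) and -0.64 (adjusted p = 0.0194). ARP1 minus RPMI8226 was called for 2 factors, against 27% of all genes. CEBPG had 0.74 ± 0.16 (limma adjusted p = 0.00589), and 0.48 (adjusted p = 0.0680) with median-ratio scaling. ATF3 had 1.27 ± 0.37 (limma adjusted p = 0.0235), and the call was lost without any 1 of the 8 libraries compared.

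At the shared dose of 5 µM, the response of ANBL6BR minus that of ANBL6 was called for NUPR1 alone, at -1.43 ± 0.34 (limma adjusted p = 0.0227), where 8.47% of all genes were called. With the ANBL6BR libraries at 1 to 4 fragments, the difference on recovered fragments was -1.04 (adjusted p = 0.692) and was not called. On the main scale the NUPR1 difference ranged from -1.99 to -0.87 with each library left out, and was -0.87 without ANBL6 I3MO replicate 2. The call was lost without either ANBL6 DMSO library or either ANBL6BR I3MO library. ATF5 had -0.60 ± 0.20 (limma adjusted p = 0.0897), EIF2AK3 0.63 ± 0.21 (limma adjusted p = 0.0901) and ATF4 -0.36 ± 0.14 (limma adjusted p = 0.131), none of which passed. Without ANBL6BR DMSO replicate 1, ATF5 was -0.86 and EIF2AK3 0.79. Without replicate 2 they were -0.33 and 0.47.

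**Figure D3:**
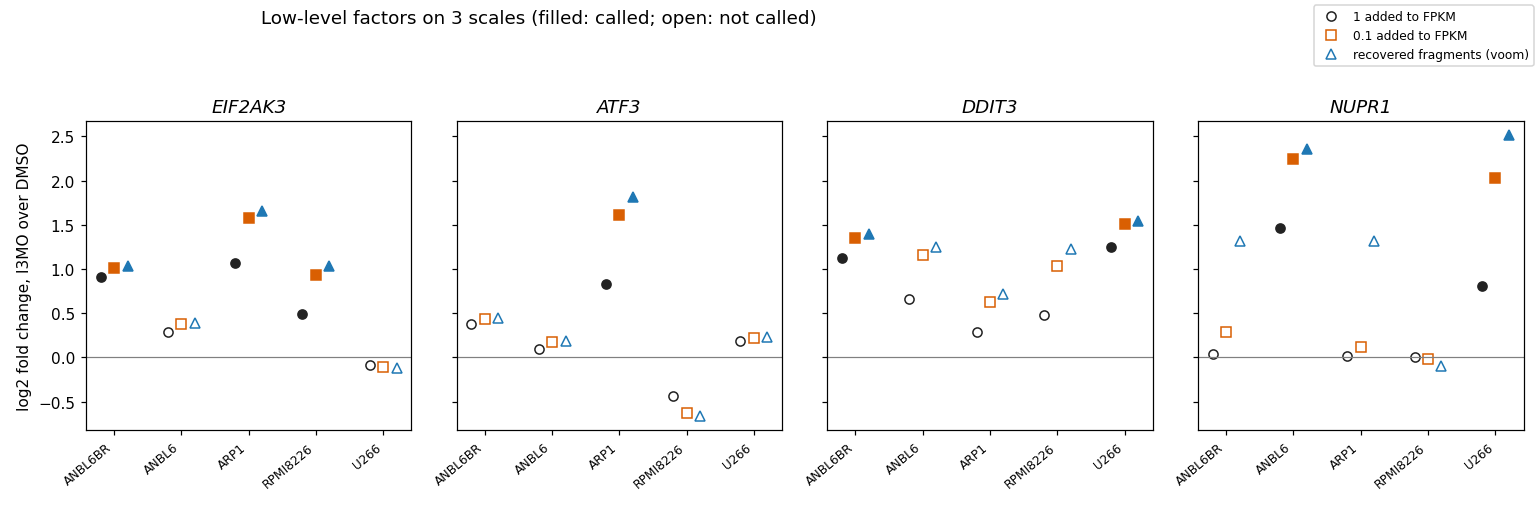
Log2 fold change (I3MO over DMSO) of 4 factors of low FPKM in each model, with 1 added to FPKM (circles), with 0.1 added (squares) and from recovered fragments with limma-voom (triangles), filled where called. The sign is the same on the 3 scales for EIF2AK3, ATF3 and DDIT3, while NUPR1 changes size in ANBL6 and U266 and has no stable value in the other 3 models.

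The bortezomib-resistant line differed from ANBL6 with DMSO alone. In DMSO libraries 9 factors were higher in ANBL6BR than in ANBL6, where 27% of all genes were higher, and NUPR1 was lower, where 24.8% were. PPP1R15A had 65.8 and 106 FPKM in ANBL6BR, against 2.95 and 3.49 FPKM in ANBL6, a log2 difference of 4.33 ± 0.22 (limma adjusted p = 4.48e-09). TRIB3 had 40.4 and 52.7 FPKM in ANBL6BR, against 6.89 and 6.51 FPKM in ANBL6, a difference of 2.61 ± 0.14 (limma adjusted p = 7.37e-09). CEBPB had 40.1 and 58.8 FPKM in ANBL6BR, against 10.2 and 7.42 FPKM in ANBL6, a difference of 2.35 ± 0.19 (limma adjusted p = 3.95e-07). These 3 had the largest log2 differences of the 9 higher factors on this scale, with no overlap. ATF4 itself differed least of the 9, with 108 and 95.4 FPKM in ANBL6BR, against 74.9 and 68.0 FPKM in ANBL6, a difference of 0.50 ± 0.10 (limma adjusted p = 0.000812). The others lay between, at 1.37 for ATF3, 1.10 for ATF5, 1.10 for CEBPG, 1.04 for DDIT3 and 0.97 for EIF2AK3. NUPR1 had 1 and 1 fragments in ANBL6BR, against 64 and 63 in ANBL6, a difference of -0.72 ± 0.24 (limma adjusted p = 0.0228) that was lost without any 1 of these 4 libraries.

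The 9 higher factors stayed called without either ANBL6BR DMSO library. Without the one with high HMOX1, PPP1R15A differed by 3.99 (adjusted p = 4.17e-08), CEBPB by 2.08 (adjusted p = 4.35e-06) and ATF3 by 1.07 (adjusted p = 0.00915). With these 4 libraries alone and the replicate number as a block, 1 residual degree of freedom was left. In that fit 3 factors were called, TRIB3, PPP1R15A and NUPR1, where 2559 genes were called rather than 8123. ATF4 and ATF5 each lost the call in 2 of the alternative fits, that one included. PPP1R15A with I3MO in ANBL6BR, at 40.8 and 65.6 FPKM, was still above every library of the other 4 models.

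**Figure D4:**
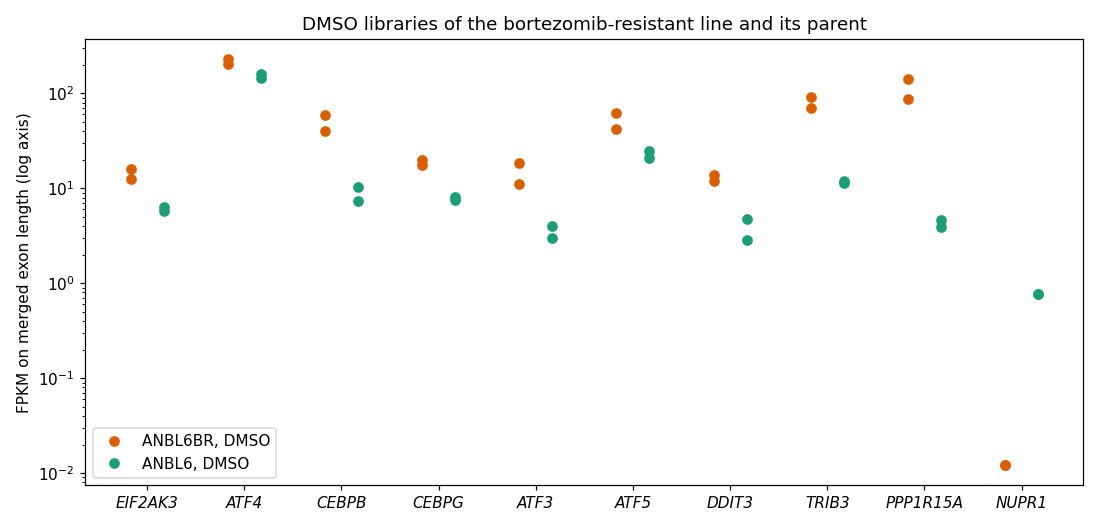
FPKM on merged exon length (log axis) of the 10 factors in the 2 DMSO libraries of ANBL6BR, left, and of ANBL6, right. ANBL6BR lies above ANBL6 for 9 factors and below it for NUPR1, whose ANBL6BR libraries hold 1 fragment each.

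DMSO levels over the 5 models differed for 9 factors in a joint test, the exception being NUPR1 (limma adjusted p = 0.0628), but 90% of all genes differed by this test. Mean FPKM of ATF4 (± SD, 2 libraries each) ran 170.1 ± 6.42 in U266, 143 ± 0.730 in RPMI8226, 109 ± 0.778 in ARP1, 102 ± 8.88 in ANBL6BR and 71.5 ± 4.87 in ANBL6, with no overlap between neighbours in this order. DDIT3 ran 2.60 ± 0.259 in ANBL6BR, 2.51 ± 0.200 in U266, 0.765 ± 0.265 in ANBL6, 0.527 ± 0.0552 in ARP1 and 0.424 ± 0.0166 in RPMI8226, where the first 2 overlapped. PPP1R15A ran 86.0 ± 28.5 in ANBL6BR, 20.8 ± 0.113 in U266, 16.8 ± 0.326 in ARP1, 3.22 ± 0.380 in ANBL6 and 2.90 ± 0.609 in RPMI8226, where the last 2 overlapped. ATF5 was highest in U266, EIF2AK3, TRIB3, CEBPB and CEBPG in ANBL6BR, and ATF3 in U266, whose libraries overlapped those of ANBL6BR. Between genes, on merged exon length, mean DMSO levels in U266 were 361 FPKM for ATF4, 92.5 for ATF5, 39.9 for CEBPB, 36.1 for TRIB3 and 12.4 for DDIT3.

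Beyond the 10 factors, a list of 39 known targets of ATF4 and CHOP, all tested, was called higher more often than lower. This list and those below were chosen with earlier results of these data known. Their counts are a description and not independent support. Called with I3MO were 15 higher and 1 lower in ANBL6BR, 17 higher and 1 lower in ANBL6, 28 higher and 0 lower in ARP1, 21 higher and 5 lower in RPMI8226 and 30 higher and 2 lower in U266. The median log2 change of the list was 0.31 in ANBL6BR, 0.41 in ANBL6, 0.78 in ARP1, 0.50 in RPMI8226 and 1.14 in U266, where the median of all genes was within 0.03 of 0. With median-ratio scaling ARP1 had 24 higher and 1 lower, with a list median of 0.55. Of all tested genes, 10% higher and 8.4% lower in ANBL6BR, 4.1% higher and 3.87% lower in ANBL6, 23.1% higher and 13.9% lower in ARP1, 6.19% higher and 8.62% lower in RPMI8226 and 10.5% higher and 15.8% lower in U266 were called. STC2, a secreted glycoprotein of calcium balance, changed by 2.36 ± 0.12 in U266 (limma adjusted p = 6.3e-08) and 1.53 ± 0.12 in ARP1 (limma adjusted p = 2.99e-06). SHMT2, the mitochondrial serine to glycine enzyme, was called in all 5 models, from 0.49 ± 0.10 in ANBL6 (limma adjusted p = 0.00947) to 1.89 ± 0.10 in U266 (limma adjusted p = 6.77e-08). FGF21, a stress hormone, changed by 2.16 ± 0.11 in U266 (limma adjusted p = 6.77e-08) and SLC7A5, a large neutral amino acid transporter, by 1.41 ± 0.08 in U266 (limma adjusted p = 1.24e-07).

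The targets called lower in a model were BBC3, BCL2L11, TNFRSF10B, SLC38A2, SLC1A4 and ERO1A. BBC3, which encodes the BH3-only protein PUMA, fell in 4 models, with -2.37 ± 0.19 in RPMI8226 (limma adjusted p = 6.4e-06), -0.62 in ANBL6BR, -0.75 in ANBL6 and -0.59 in U266. In RPMI8226 BCL2L11, which encodes BIM, changed by -0.71, TNFRSF10B, the death receptor DR5, by -0.56, and the amino acid transporters SLC38A2 and SLC1A4 by -0.88 and -0.58. TNFRSF10B was called higher in ANBL6BR, at 0.50, and in U266, at 0.49. SLC38A2 was higher in ARP1, at 1.87. ERO1A, the endoplasmic reticulum oxidase, was lower in U266, at -0.41, and higher in ARP1, at 0.42. In ANBL6BR the counts of higher and lower targets were 13 and 0 without DMSO replicate 1 and 10 and 1 without DMSO replicate 2.

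Genes of the other unfolded protein response arms, IRE1 and ATF6 with their chaperone targets, numbered 13, of which 12 were tested while XBP1, a factor plasma cells are known to need, was listed at 0 in every library, which may come from how the file was made and is not read as a level. Called were 7 higher and 0 lower in ANBL6BR, 1 higher and 0 lower in ANBL6, 8 higher and 2 lower in ARP1, 4 higher and 1 lower in RPMI8226 and 6 higher and 1 lower in U266. The list's median log2 change was 0.64 in ANBL6BR, 0.04 in ANBL6, 0.70 in ARP1, 0.34 in RPMI8226 and 0.53 in U266. Of all tested genes, 10% were called higher in ANBL6BR, 4.1% in ANBL6, 23.1% in ARP1, 6.19% in RPMI8226 and 10.5% in U266. Called lower were 8.4% in ANBL6BR, 3.87% in ANBL6, 13.9% in ARP1, 8.62% in RPMI8226 and 15.8% in U266. The 1 of 12 higher in ANBL6 and the 2 of 12 lower in ARP1 stand against 4.1% and 13.9%. With median-ratio scaling ARP1 had 6 higher and 2 lower, with a list median of 0.46. DNAJB9, a chaperone induced through IRE1, was called in all 5 models, with 1.99 ± 0.20 in ARP1 (limma adjusted p = 2.01e-05) and 1.76 ± 0.20 in U266 (limma adjusted p = 4.05e-05). HSPA5, which encodes the chaperone BiP, was called in all but ANBL6, with 1.70 ± 0.15 in U266 (limma adjusted p = 5.31e-06) and 0.99 ± 0.15 in ANBL6BR (limma adjusted p = 0.000765). EDEM1, of glycoprotein disposal, changed by 1.68 ± 0.11 in ARP1 (limma adjusted p = 1.28e-06), and HSP90B1, the chaperone GRP94, by 1.35 ± 0.19 in ARP1 (limma adjusted p = 0.000178). Lower calls were MBTPS1, the protease that cleaves ATF6, in ARP1 (-0.46) and U266 (-0.39), ATF6B in ARP1 (-0.28) and ERN1, the IRE1 gene, in RPMI8226 (-0.61). ERN1 was called higher in ANBL6BR (0.74) and ARP1 (0.67). The ANBL6BR count of 7 higher was 8 without DMSO replicate 1 and 3 without DMSO replicate 2, the library with high HMOX1.

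The 23 genes of the other eIF2 kinases, the eIF2 and eIF2B subunits and their regulators, were all tested. Called were 1 higher and 0 lower in ANBL6BR, 1 higher and 1 lower in ANBL6, 11 higher and 5 lower in ARP1, 2 higher and 2 lower in RPMI8226 and 4 higher and 3 lower in U266, and the median log2 change was 0.07 in ANBL6BR, -0.02 in ANBL6, 0.31 in ARP1, 0.04 in RPMI8226 and -0.06 in U266. In U266 the 4 higher and 3 lower of 23 stand against 10.5% and 15.8% of all genes, and in RPMI8226 the 2 higher and 2 lower against 6.19% and 8.62%. The ARP1 counts stand against 23.1% higher and 13.9% lower, and with median-ratio scaling were 10 higher and 6 lower, with a median of 0.15. In ANBL6BR the 1 higher and 0 lower stand against 10% and 8.4%. Those of ANBL6, 1 and 1, stand against 4.1% and 3.87%. The ANBL6BR counts were 3 higher and 0 lower without DMSO replicate 1, and 1 and 1 without DMSO replicate 2. DNAJC3, an inhibitor of PERK, changed by 2.22 ± 0.25 in ARP1 (limma adjusted p = 4.13e-05), 1.15 ± 0.25 in U266 (limma adjusted p = 0.00425) and 1.12 ± 0.25 in ANBL6BR (limma adjusted p = 0.00747). The initiation factors EIF2S1, EIF2S2 and EIF2A changed by 0.97, 0.94 and 1.09 in ARP1. The kinases that were called were lower: EIF2AK1 (HRI, the heme-regulated kinase) in ARP1 (-0.58) and RPMI8226 (-0.46), EIF2AK2 (PKR, which senses double-stranded RNA) in U266 (-1.21) and EIF2AK4 (GCN2, which senses uncharged tRNA) in RPMI8226 (-0.46). Also lower were QRICH1, PPP1CA, EIF2B4 and EIF2B5 in ARP1 (-0.52, -0.81, -0.29 and -0.39), QRICH1 and EIF2S3 in U266 (-0.30 and -0.41) and GCN1 in ANBL6 (-0.43).

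Of 25 other bZIP factors, possible partners or competitors of the ATF and C/EBP members, 22 were tested. Called were 3 higher and 6 lower in ANBL6BR, 1 higher and 2 lower in ANBL6, 7 higher and 3 lower in ARP1, 4 higher and 2 lower in RPMI8226 and 6 higher and 4 lower in U266, and in ARP1 median-ratio scaling gave 4 higher and 5 lower. The 3 of 22 lower in ARP1 are close to the 13.9% of all genes called lower, and the 7 higher stand against 23.1%. In ANBL6 the 1 higher and 2 lower stand against 4.1% and 3.87%. In RPMI8226 the 4 higher and 2 lower stand against 6.19% and 8.62%. In U266 the 6 higher and 4 lower stand against 10.5% and 15.8%. The 3 higher in ANBL6BR stand against 10%. In ANBL6BR, the 6 lower stand against 8.4%, and the counts were 3 higher and 9 lower without DMSO replicate 1 and 2 higher and 4 lower without DMSO replicate 2. CREB3, of the Golgi and endoplasmic reticulum, was higher in 4 models, with 1.35 ± 0.09 in U266 (limma adjusted p = 5.02e-07), and lower in ARP1, at -0.32. FOSL2, an AP-1 subunit, changed by 2.20 ± 0.12 in U266 (limma adjusted p = 9.81e-08), and NFE2L2, the NRF2 gene of the antioxidant response, by 1.17 ± 0.13 in ARP1 (limma adjusted p = 3.35e-05). The AP-1 subunits JUNB and FOS were lower in ANBL6BR (-1.52 and -0.69), ANBL6 (-1.09 and -0.93) and U266 (-1.84 and -1.74). JUN was lower in ANBL6BR (-0.996) and U266 (-0.72) and higher in RPMI8226 (0.85). MAFF, a small Maf factor, was lower in ANBL6BR (-1.38), ARP1 (-0.95) and U266 (-0.60). Lower in 1 model were CEBPD (-1.06) and MAFG (-0.83) in ANBL6BR, CEBPA (-0.64) in ARP1, and JUND (-0.82) and FOSL1 (-0.40) in RPMI8226.

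**Figure D5:**
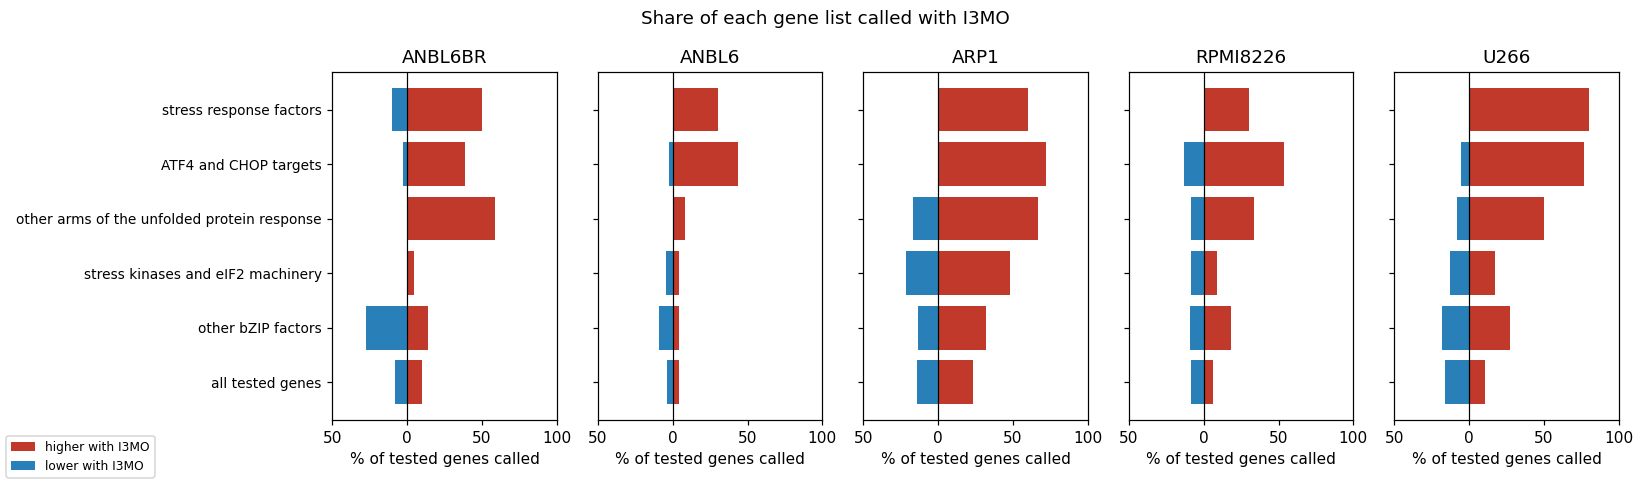
Percent of the tested genes of each list called higher (red, right of 0) or lower (blue, left of 0) with I3MO in each model, with all 15687 tested genes in the bottom row. Stress response factors and ATF4 and CHOP targets were called higher at 30% or more in all 5 models.

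The tested genes whose log2(FPKM + 1) followed ATF4 most closely over the 20 libraries, after the mean of each model was subtracted, were ASS1 (r = 0.988), PCK2 (r = 0.973), PSAT1 (r = 0.973), INHBE (r = 0.972) and GARS1 (r = 0.969). PSAT1, PCK2, INHBE and GARS1 (GARS) are also on the list of targets, and ASS1 encodes the arginine synthesis enzyme argininosuccinate synthase. Among the 10 factors, TRIB3 ranked 49, CEBPG 75 and DDIT3 420 of 15686 genes by likeness to ATF4, and ATF5 ranked 5062. For DDIT3 the closest were RBCK1 (r = 0.934), TMEM9 (r = 0.927), KCTD21 (r = 0.926), FICD (r = 0.923) and JDP2 (r = 0.921). TRIB3 ranked 38 and ATF4 343 by likeness to DDIT3. With model means subtracted, the step between I3MO and DMSO within each model remains in these values, as does any effect of sequencing depth. A high r can therefore restate a shared response to treatment, and the correlations are a description with no test.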

How the data were processed

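RNA-seq of 20 libraries was used, 2 for each of 10 groups. The authors deposited FPKM (fragments per kilobase of exon, scaled by library total) per gene, in 1 table per library and 1 joint table with the same values. Per the submitters' processing notes, Trimmomatic 0.32 or 0.36, STAR and SAMtools were used with build hg38. The annotation and the strand setting of counting are not stated in the sources used here.

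The FPKM steps gave whole fragments, within 0.02, for 100% of the 15687 tested genes, with totals of 12.11 M to 20.31 M. The length in use equalled the summed exons of all transcripts of a gene for 100% of 1156 genes checked against GENCODE 29, so FPKM are understated, by 1.74 times at the median. Levels are compared between genes only on merged exon length.

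The test took genes that reached 1 FPKM in 2 or more libraries, as log2(FPKM + 1) with limma 3.58.1 in R 4.3.3, using 1 mean per group, a spread shared over the 10 groups, an intensity trend and Benjamini-Hochberg adjustment over all tested genes. The test across the models took the mean of each group instead, with the spread between models as the error. Called means an adjusted p under 0.05. The script was tested on simulated data. Tables were handled with Python 3.11.15 and pandas 2.3.3. The main alternative on the recovered fragments was limma-voom. The others were 0.1 in place of 1, other filters, median-ratio scaling, merged exon lengths, no trend, fits on the compared models alone, a replicate block and each library left out.

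Genes of the gene lists were named by a rule: at most 4 of those called in a model, by smallest unadjusted p, and each one called lower. The 10 factors and the lists were chosen with earlier results of these data known. Replicate numbers did not pair libraries: differences between replicates of the 2 treatments correlated at -0.113 to 0.034 over genes.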

Additional observations from a re-analysis of the deposited data

Results flagged for a closer look

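In each of these 13 cases the I3MO response of a factor differed between models by the limma test of the difference itself, in log2(FPKM + 1). U266 minus RPMI8226 was 1.61 for TRIB3, 1.32 for CEBPB, 1.15 for ATF5, 1.12 for CEBPG and 0.51 for ATF4. The ATF4 difference was lost without any 1 of 7 of the 8 libraries compared.

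ARP1 minus U266 was -1.62 for ATF5, -1.42 for TRIB3, -0.99 for CEBPB, -0.96 for DDIT3 and 1.16 for EIF2AK3. The CEBPB call was lost without ARP1 DMSO replicate 1 or ARP1 I3MO replicate 1, and that of DDIT3 without any 1 of 12 libraries.

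ARP1 minus RPMI8226 was 1.27 for ATF3 and 0.74 for CEBPG. ANBL6BR minus ANBL6 was -1.43 for NUPR1, of which ANBL6BR held 1 to 4 fragments a library. These pairs share libraries, and doses were equal within each pair.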

How the results depend on the processing

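Of 2453 values of 82 results under the alternatives, 2266 kept their direction and side of the threshold, 144 lost a call, 31 gained one and 12 reversed. Factors called fell to 0 in ANBL6BR, ANBL6 and ARP1 when each model was fitted alone, which leaves 2 residual degrees of freedom. ANBL6BR minus ANBL6 went to 0 called in that fit on its models, with FPKM of at least 1 in 10 libraries, with limma-voom and with the replicate block. ARP1 minus RPMI8226 had 4 called on its models alone and 1 with no filter. Across the models 1 was called with FPKM of at least 1 in 10 libraries. With the replicate block 5 were called across the models and 3 for ANBL6BR against ANBL6 in DMSO. Numbers pair no libraries here, so the block is an extra fit. In ARP1, crossed numbers gave 6 factors and 5064 genes called, uncrossed ones 4854 genes.

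With each library left out, factors called ranged over 2 to 4 in ANBL6, 5 to 7 in ANBL6BR, 4 to 8 in ARP1, 1 to 3 in RPMI8226 and 6 to 8 in U266. Differences ranged over 0 to 3 for ANBL6BR minus ANBL6, 1 to 4 for ARP1 minus RPMI8226, 3 to 5 for ARP1 minus U266 and 4 to 6 for U266 minus RPMI8226. Targets called lower in ANBL6BR ranged over 0 to 1. A library left alone in its group was assumed to vary like the other groups.

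No called value reversed. NUPR1 in RPMI8226 was -0.017 with 0.1 added and -0.098 with limma-voom, and -0.068 to 0.071 with a library left out. Within models, left-out ranges also crossed 0 for ATF3 in ANBL6BR (-0.13 to 0.88) and ANBL6 (0.00 to 0.20) and EIF2AK3 in U266 (-0.30 to 0.13). Those of CEBPB did in ANBL6BR (-0.13 to 0.41) and ANBL6 (-0.064 to 0.35). So did ATF5 across the models (-0.050 to 0.057) and several uncalled differences between models, such as DDIT3 in ANBL6BR minus ANBL6 (-0.010 to 0.92). In these cases the cause was not tested.

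Counts over all genes moved more. In ANBL6 1250 genes were called, 355 to 1829 with a library left out and 18 to 4181 under the other settings. The same figures were 2888, 1418 to 3361 and 64 to 2883 in ANBL6BR, 5801, 3509 to 6355 and 227 to 6067 in ARP1, 2323, 1144 to 2871 and 1541 to 2613 in RPMI8226, and 4117, 2869 to 4690 and 974 to 4984 in U266. They were 8123, 6880 to 8456 and 2559 to 9096 for ANBL6BR against ANBL6. Depth limits NUPR1 in ANBL6BR, ARP1 and RPMI8226, where libraries held 0 to 23 fragments.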
